A study of Mus musculus with 8 samples.

Results

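Growth and repair factors are secreted or membrane-shed proteins with which cells tell their neighbours to divide, migrate or lay down matrix. Transcripts for several of them were measured here in cell preparations selected for lung neutrophils. The genes examined were *Hbegf*, *Areg*, *Ereg*, *Tgfb1*, *Inhba*, *Pdgfb*, *Hgf*, *Igf1*, *Thbs1* and *Tgfbi*, 10 genes chosen by name. Each was looked up through the RefSeq transcript identifier of its row in the deposited table, and 9 of the 10 had a row among the 24625 rows, of which 19915 (80.9%) could be given a gene symbol. No row matched *Igf1*, so its level is not analysed here. Each of the 9 genes had 1 row.

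The cells, labelled neutrophils, came from the lungs of wild-type (WT) mice, female C57BL/6J per the study's methods. The labels put their age at 6 to 12 weeks, while the methods narrow it to 6 to 8 weeks. All mice were anesthetized and given 2.3 µl of fluid per g of body weight into the left lung through the trachea, either phosphate-buffered saline (PBS, 4 arrays) or a suspension of *Streptococcus pneumoniae* (SP, 4 arrays), and cells were taken 24 h later. Neutrophils were pulled from a lung cell suspension with an antibody against Ly6G, a neutrophil surface protein, and magnetic beads. The control mice therefore also received anesthesia, a fluid instillation and the same bead selection. Each array gave 1 value per row as log2 of a normalised signal, called the log2 level here, so a difference of 1 is a 2-fold difference. The study describes each array sample as one from a mouse, so p-values rest on the spread between mice within a group.

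Array medians were 6.06 to 6.20 in PBS and 5.78 to 5.91 in SP, and correlations between arrays were 0.979 to 0.997 within PBS, 0.970 to 0.995 within SP and 0.857 to 0.947 between the groups. SP replicate 3 lay apart from the other SP arrays on the second principal component, at -51.4 against 16.2 to 26.8. PBS replicate 2 lay apart from the other PBS arrays on the third, at 34.9 against -23.7 to -0.82. Neutrophil markers had a summed log2 level of 15.8 to 16.0 in PBS and 15.3 to 15.9 in SP, and 3 of the 8 with a row were lower in SP. For *Retnlg*, 1 of the 3, that fall no longer passed the test in several alternative fits, listed in the closing section. *Ly6g*, the selection antigen, had no matched row. Markers of other lung cells were also present, and many of these lists were lower in SP, as described below. Alveolar type 2 markers had a high summed log2 level, 15.14 to 15.52 in PBS and 13.43 to 14.65 in SP. Club cell markers were at 14.79 to 15.09 in PBS and 13.46 to 13.80 in SP. The authors evaluated neutrophil purity, on stained cells, in the samples from mice with pneumonia. They reported it as high there, with few other cells, most of which looked like alveolar macrophages. Their methods give no purity for the PBS samples.

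The set falls into EGF-family ligands, TGF-β superfamily ligands and ligands of other receptor kinases, with matrix proteins beside them. The EGF-family ligands HB-EGF (*Hbegf*), amphiregulin (*Areg*) and epiregulin (*Ereg*) are made as membrane precursors, are cut free mainly by the protease ADAM17, and act on the EGF receptor and its relatives. TGF-β1 (*Tgfb1*) and activin A, a dimer of the product of *Inhba*, belong to a common superfamily and signal through paired receptors and SMAD proteins, TGF-β1 after release from a latent complex, to which thrombospondin-1 (*Thbs1*) can contribute. PDGF-B (*Pdgfb*), HGF (*Hgf*) and IGF-1 (*Igf1*) act on receptor tyrosine kinases of mesenchymal and epithelial cells, and *Tgfbi* encodes a matrix protein named for its induction by TGF-β.

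Promoter sequence was matched for 5 of the 9 genes with a row, in 6 windows of the RefSeq promoter table (GRCm38.p6). The 250 bases before the annotated start are shown for *Areg*, *Inhba* and *Tgfb1*, the genes whose change held under all alternatives tried. All are on the plus strand, at chr5:91139349-91139598 for *Areg*, chr13:16011601-16011850 for *Inhba* and chr7:25686752-25687001 for *Tgfb1*. Capitals mark the matches described after the sequences.
Areg: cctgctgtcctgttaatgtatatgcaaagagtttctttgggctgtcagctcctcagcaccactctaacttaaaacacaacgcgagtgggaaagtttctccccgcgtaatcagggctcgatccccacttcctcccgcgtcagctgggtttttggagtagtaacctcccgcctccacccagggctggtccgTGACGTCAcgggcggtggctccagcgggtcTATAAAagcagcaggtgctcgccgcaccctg
Inhba: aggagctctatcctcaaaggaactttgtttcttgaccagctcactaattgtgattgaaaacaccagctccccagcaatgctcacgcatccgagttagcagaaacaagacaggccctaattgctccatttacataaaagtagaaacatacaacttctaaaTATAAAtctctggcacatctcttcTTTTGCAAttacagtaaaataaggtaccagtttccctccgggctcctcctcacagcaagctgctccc
Tgfb1: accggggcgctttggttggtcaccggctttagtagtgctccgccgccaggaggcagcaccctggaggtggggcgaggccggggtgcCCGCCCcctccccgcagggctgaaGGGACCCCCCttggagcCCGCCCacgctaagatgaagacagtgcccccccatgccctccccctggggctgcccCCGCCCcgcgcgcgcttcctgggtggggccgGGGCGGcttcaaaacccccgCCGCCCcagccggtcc

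The capitals in *Areg* are a cyclic AMP response element match (searched as TGACGTNA), which begins at position -61 from the annotated start, and a TATA match (TATAAA) at -31. The capitals in *Inhba* are a TATA match at -91 and a C/EBP match (TTGCNNAA) at -67. Those in *Tgfb1* are 5 GC boxes (GGGCGG) and a κB match, searched by its usual degenerate pattern, at -140. Among all 32851 windows of this length, both strands searched, 2.52% held the cyclic AMP response element, 12.4% the TATA match, 9.56% the C/EBP match, 32.7% a GC box and 7.25% the κB match. No AP-1 match (TGANTCA) or GAS match (TTCNNNGAA) lay in these 3 windows, against 6.75% and 7.02% of all windows. A GC box of *Areg* at -52, just after its cyclic AMP response element, is left in lower case. GC content of the windows was 57.2% for *Areg*, 43.2% for *Inhba* and 75.2% for *Tgfb1*. These matches are letters in a window and were not tested for binding.

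In pneumonia, *Inhba*, *Tgfb1* and *Ereg* were higher and *Areg* and *Hgf* were lower, while *Hbegf*, *Thbs1*, *Pdgfb* and *Tgfbi* did not pass the test. The test was limma's moderated test with Benjamini-Hochberg adjustment over all 24625 rows, and a gene was called if its adjusted p did not exceed 0.05. Of the genes with a row, 5 of 9 were called, against 44.1% of all rows. At least 2-fold higher in SP were 3 of the 9, against 6.37% of all rows, and at least 2-fold lower was 1 of the 9 (*Areg*), against 11.3%. The groups did not overlap for 5 of the 9 genes, against 49.0% of all rows. The median difference (SP minus PBS) was 0.47 over the 9 genes and 0.10 over all rows. The share called was thus near that of the whole table. Because the arrays read a mixture of cells, fewer cells of a type and less RNA per cell cannot be told apart.

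**Figure D1:**
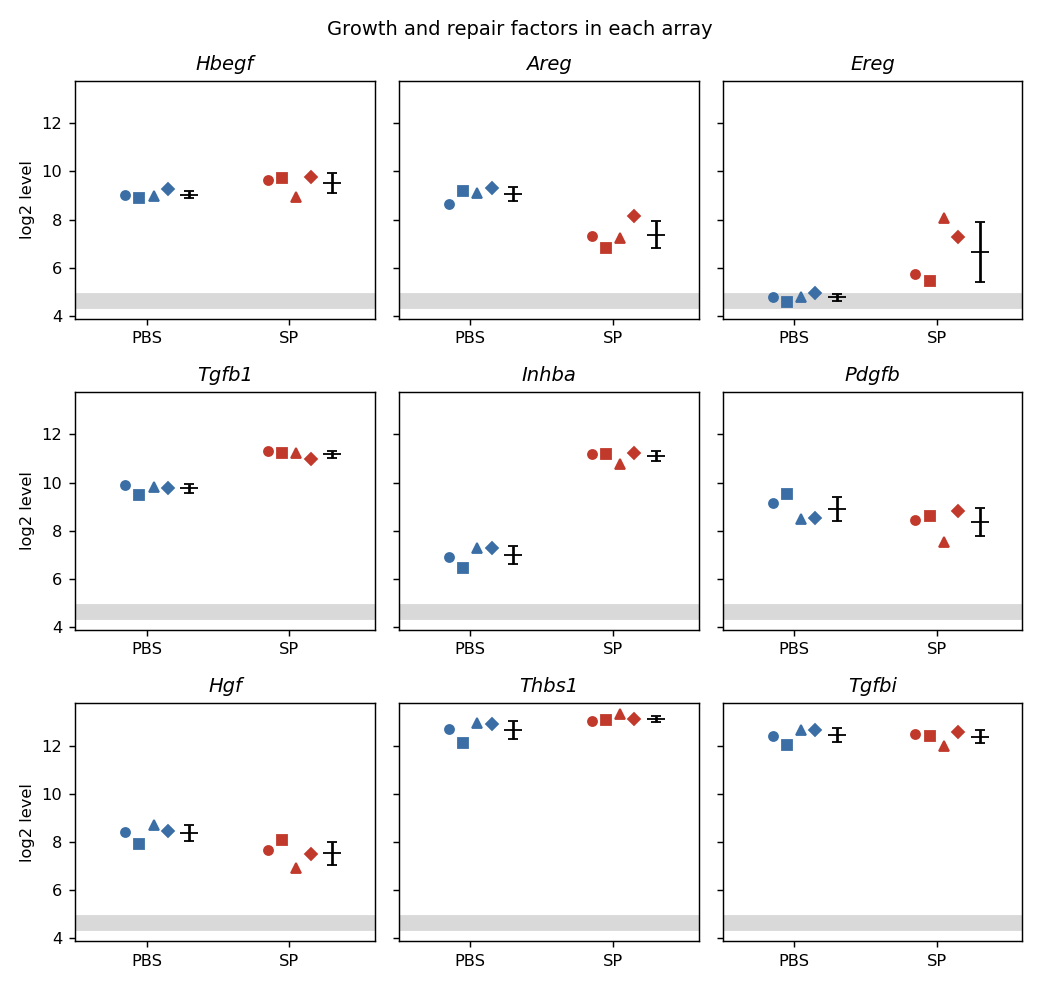
Log2 level (y axis) of the 9 growth and repair factors with a row in the 4 PBS (blue) and 4 SP (red) arrays. Circle, square, triangle and diamond are replicates 1, 2, 3 and 4, the bar is the mean ± SD, and the grey band is the range of 3 Y-linked rows in these female mice (4.33 to 4.90). *Inhba* rose from 6.98 to 11.09 with no overlap, while PBS values of *Ereg* lie in or just above the grey band.

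*Inhba* (NM_008380), which encodes the subunit of activin A, changed most. Its log2 levels were 6.92, 6.47, 7.27 and 7.27 in PBS replicates 1 to 4 and 11.17, 11.18, 10.78 and 11.23 in SP replicates 1 to 4. Every SP value lay above every PBS value, with 3.51 between the nearest arrays. The difference was 4.11 (95% confidence interval 3.67 to 4.55), or 17.2-fold, with a limma adjusted p of 4.3e-06. It was the 59th largest rise of 19836 symbols. Activin A is bound and neutralised by follistatin (*Fst*), which rose 2.67-fold in the same arrays (difference 1.42, adjusted p = 0.0265), with SP values of 5.99, 5.93, 7.34 and 7.85 against 5.18 to 5.54 in PBS. That call was lost under the study's ANOVA, here and below a rerun on the deposited values and not the study's own result (adjusted p = 0.0613). It was also lost without PBS replicate 1, 2, 3 or 4 or SP replicate 3 (0.0504 to 0.0635).

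The other genes of the activin system moved less. Of the 5 ligand and inhibin subunit genes, *Inhba* and *Inhbc* rose, *Inha* fell, and *Inhbb*, chosen for naming after its value was seen, differed by 0.11 (adjusted p = 0.627). *Inhbc* rose by only 0.30 (adjusted p = 0.0301) and was no higher than the Y-linked rows, at 4.46 to 4.77 in SP. Of the 8 receptor and antagonist genes, 1 rose and 3 fell. Of the type I receptor genes, *Acvr1* fell 2.005-fold (adjusted p = 0.0112), and *Acvr1b* differed by 0.32 (adjusted p = 0.231), passing with arrays centred on their medians (0.0353). The type II receptor gene *Acvr2b* fell by 0.45 on the log2 scale (adjusted p = 0.00641), a call lost with arrays centred on their medians (adjusted p = 0.177), and *Acvr2a* differed by -0.21 (adjusted p = 0.333), with the sign turned under both scaling alternatives.

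*Tgfb1* (NM_011577), the main TGF-β isoform of leukocytes, was 2.68-fold higher in SP. The PBS values were 9.90, 9.50, 9.83 and 9.79 and the SP values 11.30, 11.21, 11.21 and 10.98. The groups were far apart for the spread within them, which was 0.18 in PBS and 0.14 in SP (SD over 4 arrays each). The difference was 1.42 (1.17 to 1.68), with an adjusted p of 3.87e-05. The other TGF-β isoform genes went the other way. *Tgfb3* fell by 2.54 (adjusted p = 0.000212) and *Tgfb2*, chosen for naming after its values were seen, fell by 2.03 (adjusted p = 0.0002).

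Genes that hold or release TGF-β1 were divided. Of 11, 2 rose and 3 fell, and the 3 that fell were the latent TGF-β binding protein genes *Ltbp2*, *Ltbp3* and *Ltbp4*, with *Ltbp4* lowest (difference -2.37, adjusted p = 0.00479). *Furin*, whose protease cuts the TGF-β1 precursor, rose 3.13-fold (adjusted p = 0.00032), and *Itgav*, chosen after its value was seen and encoding an integrin chain that activates latent TGF-β1, rose 1.32-fold (adjusted p = 0.00455). The remaining 6 genes of the list, *Thbs1* included, did not pass.

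*Thbs1* (NM_011580), encodes thrombospondin-1, a matrix glycoprotein of platelets and myeloid cells. Its log2 levels were 12.67, 12.12, 12.94 and 12.90 in PBS and 13.04, 13.05, 13.31 and 13.09 in SP. No SP array lay below a PBS array, but the gap was only 0.10. The difference of 0.47 (0.06 to 0.88) had an adjusted p of 0.0624 and was not called. It passed with arrays centred on their medians (difference 0.75, adjusted p = 0.0094), without PBS replicate 3 (0.56, adjusted p = 0.0468) and with a robust prior (adjusted p = 0.0473). It was smaller without PBS replicate 2 (0.29, adjusted p = 0.071), with array weights (0.27, adjusted p = 0.104) and after another quantile normalization (0.31, adjusted p = 0.113). Of its receptors, *Cd47* rose 1.42-fold (adjusted p = 0.00517, and 0.0546 after another quantile normalization), while *Cd36*, which is also an endothelial and macrophage gene, fell 3.59-fold (adjusted p = 0.000865). Among the other thrombospondins *Thbs4* rose 4.68-fold (adjusted p = 0.000877), from 4.38 to 4.52 in PBS, within the range of the Y-linked rows. *Thbs3*, named after its value was seen, fell 3.07-fold (adjusted p = 1.55e-05), and *Thbs2* and *Comp* did not pass.

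Receptors and SMADs of the TGF-β pathway were divided too, with 3 of 11 higher and 3 lower. *Tgfbr1*, the type I receptor gene, rose 2.89-fold (adjusted p = 0.00153) and *Smad3*, which carries the signal to the nucleus, rose 3.75-fold (adjusted p = 0.0024). *Tgfbr2*, the type II receptor gene, differed by -0.32 (adjusted p = 0.18). *Tgfbr3*, the betaglycan gene, fell 2.00-fold (adjusted p = 0.0334), a call lost under the study's ANOVA (0.0705) and without PBS replicate 1 or 2 or SP replicate 1, 2 or 3 (0.0639 to 0.0868).

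Of 8 genes listed as TGF-β targets, 4 rose and 1 fell. Among those that did not pass were *Ccn2* (-0.11, adjusted p = 0.834) and *Pmepa1* (-0.425, adjusted p = 0.309), both named after their values were seen. The largest rise was that of *Tgif1*, a nuclear corepressor of SMADs, by 6.63-fold (adjusted p = 1.38e-05). The further 3 that rose were chosen for naming after their values were seen. *Skil* and *Ski*, both SMAD corepressors, rose 3.98-fold (adjusted p = 0.000212) and 2.83-fold (adjusted p = 2.54e-05). *Smad7*, the inhibitory SMAD, rose 1.94-fold (adjusted p = 0.00233). Many of these genes also respond to other signals, and the list does not show what acted on the cells.

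*Tgfbi* (NM_009369), encodes the matrix protein named for its induction by TGF-β. It was 12.39, 12.04, 12.64 and 12.64 in PBS and 12.50, 12.41, 11.99 and 12.58 in SP, so the groups overlapped. The difference of -0.06 (-0.46 to 0.34) had an adjusted p of 0.784, and its interval leaves out a 2-fold change in either direction. Its sign turned with arrays centred on their medians.

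**Figure D2:**
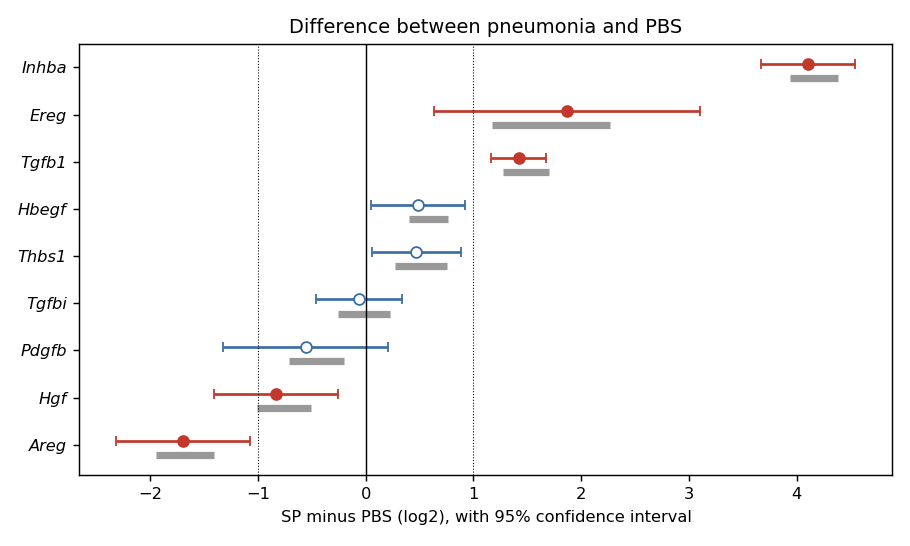
Difference SP minus PBS on the log2 scale (x axis) for each of the 9 genes, with its 95% confidence interval. Filled red points passed an adjusted p of 0.05 and open blue points did not, dotted lines are 2-fold, and the grey bar under each gene is the range of the difference over the alternatives tried (16, or 15 for *Ereg*). *Inhba*, *Tgfb1* and *Areg* keep clear of 1 or -1 with the whole interval, whereas the interval of *Ereg* reaches from 0.63 to 3.10.

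The EGF-family ligands split. *Areg* (NM_009704), encoding amphiregulin, was 8.66, 9.20, 9.11 and 9.31 in PBS and 7.32, 6.82, 7.22 and 8.14 in SP. All SP values were below all PBS values, with SP replicate 4 closest. The difference was -1.69 (-2.31 to -1.07), or 3.23-fold lower, with an adjusted p of 0.00146.

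*Ereg* (NM_007950), encoding epiregulin, went up from a level near background. It was 4.77, 4.59, 4.77 and 4.96 in PBS, close to the 3 Y-linked rows at 4.33 to 4.90, and 5.75, 5.44, 8.07 and 7.28 in SP. The SP arrays fell into a low pair, replicates 1 and 2, and a high pair, replicates 3 and 4, and the SD of 1.25 within SP was at the 99.8th percentile of all rows. The difference of 1.86 (0.63 to 3.10), or 3.64-fold, had an adjusted p of 0.0236. The call was lost without PBS replicate 1 (adjusted p = 0.0549), PBS replicate 2 (0.0543) or SP replicate 4 (0.0534). It was also lost under the study's ANOVA rerun here on the deposited values (0.0574), although the paper lists *Ereg* among its upregulated mRNAs. The difference was between 1.39 and 2.26 when any 1 array was left out and 1.18 with array weights (adjusted p = 0.021).

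*Hbegf* (NM_010415), encoding HB-EGF, was 9.01, 8.91, 8.96 and 9.25 in PBS and 9.65, 9.72, 8.92 and 9.78 in SP. Only SP replicate 3 overlapped the PBS range, and the other 3 SP arrays lay above it. The difference was 0.49 (0.05 to 0.93) and was not called (adjusted p = 0.0682). Without SP replicate 3 it was 0.69 (adjusted p = 0.00124), and it also passed with array weights (0.56, adjusted p = 0.00362), with centred arrays (0.77, adjusted p = 0.00525) and after another quantile normalization (0.53, adjusted p = 0.022).

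**Figure D3:**
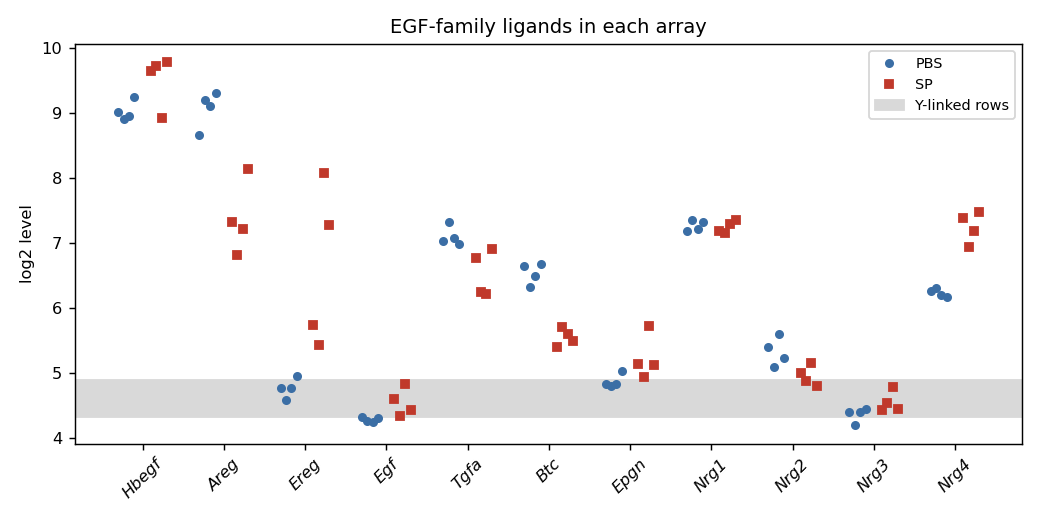
Log2 level (y axis) of the 11 EGF-family ligand genes in the 4 PBS (blue circles) and 4 SP (red squares) arrays, with the range of 3 Y-linked rows as a grey band. *Areg* and *Btc* are lower in SP in all arrays, *Nrg4* and *Ereg* are higher, and *Egf*, *Nrg3* and *Epgn* lie in or near the band. Levels of different genes are not to be ranked, since each row has its own probes.

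Over the 11 EGF-family ligands, 2 rose and 4 fell. Beside *Ereg*, the neuregulin gene *Nrg4* rose 2.02-fold (adjusted p = 0.000303). Beside *Areg*, *Nrg2* fell, and so did *Btc* (betacellulin, 1.97-fold lower, adjusted p = 0.000194) and *Tgfa* (1.48-fold lower, adjusted p = 0.0301), both named after their values were seen. The call of *Tgfa* was lost with centred arrays (adjusted p = 0.13) and after another quantile normalization (0.51). It was also lost under the study's ANOVA (0.0585) and with a replicate block (0.0652). The same held without PBS replicate 1, 2 or 3 or SP replicate 2 or 3 (0.0556 to 0.0740). *Epgn*, *Ereg*, *Areg* and *Btc* follow each other among the protein-coding genes of chromosome 5 in the RefSeq table. Along that run the differences were 0.36 for *Epgn* (adjusted p = 0.101), 1.86 for *Ereg*, -1.69 for *Areg* and -0.98 for *Btc*, so adjacent ligand genes moved in opposite directions.

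Of the 5 genes of the proteases that release these ligands and their partners, 2 rose and 1 fell. *Adam17*, encoding the protease that sheds all 3 ligands, rose 3.06-fold (adjusted p = 2.52e-05). *Rhbdf2*, named after its value was seen and encoding iRhom2, the ADAM17 partner of immune cells, rose 2.75-fold (adjusted p = 0.000493), while *Rhbdf1*, encoding iRhom1, fell 2.66-fold (adjusted p = 0.00778). *Adam9* and *Adam10*, the further 2 genes of this list, did not pass.

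Of the 4 receptor genes for these ligands 1 rose and 2 fell. *Erbb2* fell 4.29-fold (adjusted p = 0.000592) and *Erbb3* 3.98-fold (adjusted p = 0.000789). *Egfr* differed by -0.31 (adjusted p = 0.561), its sign turned after another quantile normalization and without SP replicate 3, and it passed without SP replicate 4 (-0.75, adjusted p = 0.0439). *Erbb4* differed by 0.21 (adjusted p = 0.0341) from 4.15 in PBS to 4.37 in SP, no higher than the Y-linked rows, and its call was lost after another quantile normalization (0.235). That call was also lost with a replicate block (0.0759) and without PBS replicate 1, 2, 3 or 4 or SP replicate 1 (0.0638 to 0.0867). Of 7 feedback regulators of these receptors 3 fell and none rose, with *Lrig1* 3.78-fold lower (adjusted p = 0.000113).

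*Hgf* (NM_001289458), encoding the ligand of MET, was lower in SP by a smaller and less certain margin. Levels were 8.39, 7.92, 8.70 and 8.44 in PBS and 7.66, 8.06, 6.92 and 7.48 in SP. SP replicate 2 lay above PBS replicate 2, so the groups overlapped. The difference was -0.83 (-1.41 to -0.26), or 1.78-fold lower, with an adjusted p of 0.0277. The call was lost in 9 of 16 alternatives, among them the study's ANOVA (adjusted p = 0.0603), centred arrays (difference -0.55, adjusted p = 0.0667), another quantile normalization (-0.51, adjusted p = 0.106), and without PBS replicate 1, 3 or 4 or SP replicate 1 or 4 (adjusted p 0.0508 to 0.0667).

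Of the 8 genes of HGF, its activation and its receptor, 5 fell and none rose. *Met* was 0.43 lower on the log2 scale with an adjusted p of 0.0625, just outside the threshold, and passed without SP replicate 4 (0.0417), but was 0.14 lower with centred arrays (adjusted p = 0.381) and 0.26 lower with array weights (0.0788). *Spint2*, which encodes an inhibitor of the proteases that activate HGF and is an epithelial gene, fell 3.48-fold (adjusted p = 0.000649).

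*Pdgfb* (NM_011057), encoding the PDGF-B chain, was not called under any of the 16 alternatives. It was 9.14, 9.52, 8.48 and 8.51 in PBS and 8.46, 8.63, 7.51 and 8.82 in SP, and the groups overlapped. The difference of -0.56 (-1.32 to 0.21) had an adjusted p of 0.19, and its interval includes a 2-fold fall. It shrank to -0.28 without SP replicate 3, to -0.36 without PBS replicate 2, to -0.20 with array weights and to -0.28 with centred arrays. Of the other PDGF genes, *Pdgfd* fell 3.68-fold (adjusted p = 0.000566), and *Pdgfa* and *Pdgfc*, named after their values were seen, fell 2.06-fold (adjusted p = 0.00351) and 1.94-fold (adjusted p = 0.000398). The receptor gene *Pdgfrb* fell 2.45-fold (adjusted p = 0.035), a call lost under the study's ANOVA (0.0744) and without PBS replicate 1 or 2 or SP replicate 1 or 2 (0.0513 to 0.0917), while *Pdgfra* differed the other way, by 0.92 (adjusted p = 0.241), and passed with array weights (1.24, adjusted p = 0.0466).

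The genes around *Igf1* were measured although *Igf1* was not. Of 11 IGF-pathway genes with a row, 2 rose and 6 fell. *Igf1r* differed by -0.10 (adjusted p = 0.646), with the sign turned when arrays were centred on their medians. *Igfbp3*, an IGF binding protein gene, had the largest rise, 3.80-fold (adjusted p = 0.0448), but its groups overlapped, and the call was lost under the study's ANOVA (0.0899) and without PBS replicate 2, 3 or 4 or SP replicate 3 (0.0775 to 0.0985). Without SP replicate 4, where it was 9.61, its difference was 1.27 instead of 1.93. *Igf2r*, named after its value was seen and encoding a receptor that clears IGF-2, rose 2.80-fold (adjusted p = 0.00143). *Igfbp5*, an IGF binding protein of stromal cells, fell 15.9-fold (adjusted p = 0.000152).

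**Figure D4:**
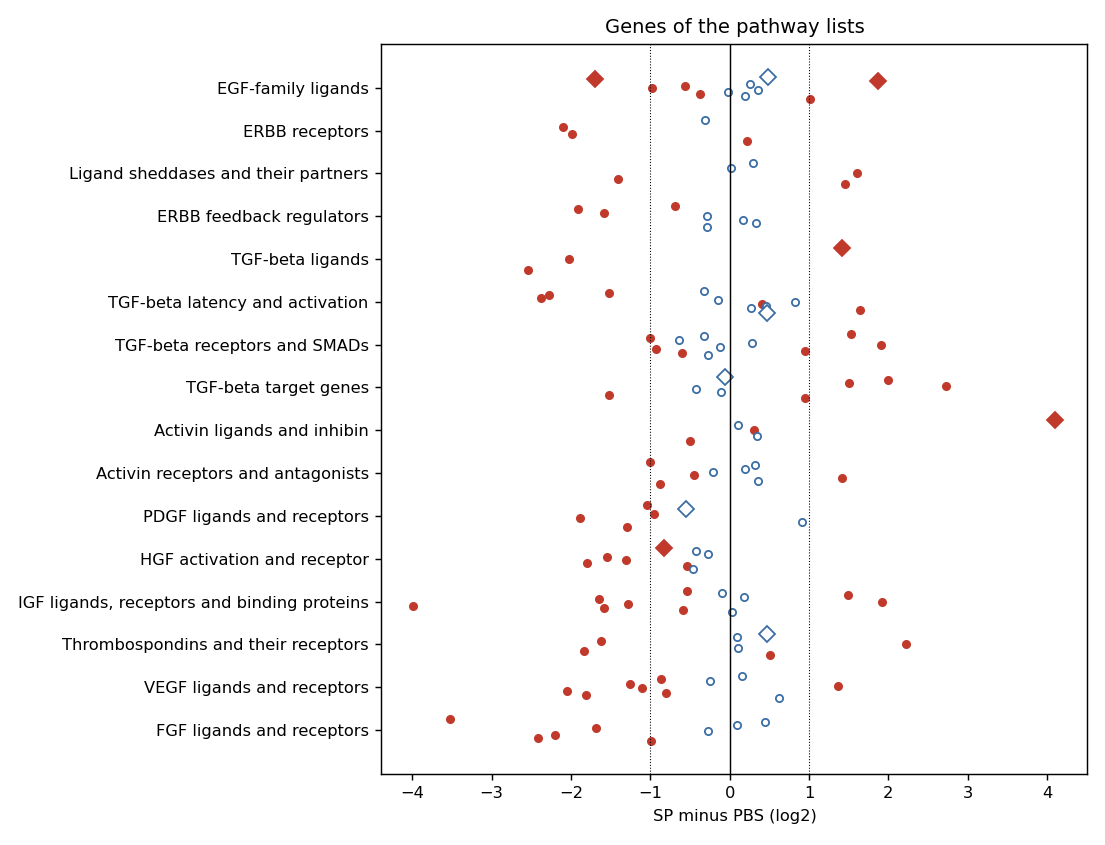
Difference SP minus PBS on the log2 scale (x axis) for each gene with a row in 16 pathway lists (y axis). Diamonds are the growth and repair factors and circles the other genes, filled red where the adjusted p was at most 0.05 and open blue where it was not, with dotted lines at 2-fold. *Inhba* lies farthest to the right of all and *Igfbp5* farthest to the left.

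Over all 16 pathway lists, 111 of 112 genes other than the 10 named had a row, and 67 of them were called, 19 higher and 48 lower, with a median difference of -0.28. The VEGF and FGF lists, which hold ligand and receptor genes and none of the set, were lower on balance as well. Of the 10 VEGF genes 1 rose and 6 fell, with *Pgf* 2.57-fold higher (adjusted p = 0.011) and the receptor gene *Kdr* 4.15-fold lower (adjusted p = 0.0051). The other falls, named after their values were seen, were of the ligand genes *Vegfb* and *Vegfd* and the receptor genes *Flt1*, *Flt4* and *Nrp1*. *Vegfa*, also named later, differed by 0.16 (adjusted p = 0.265). It passed with array weights (0.30, adjusted p = 0.0161) and centred arrays (0.44, adjusted p = 0.00581). Of the 8 FGF genes with a row 5 fell and none rose, with *Fgf1* 11.6-fold lower (adjusted p = 3.37e-05). The other falls, also named later, were of *Fgf18* and the receptor genes *Fgfr2*, *Fgfr3* and *Fgfr4*. *Fgf7*, *Fgf10* and *Fgfr1* did not pass.

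This balance depended on the scaling. With each array centred on its own median, the median difference of all rows moved from 0.10 to 0.38 and the share of called rows that were higher in SP from 48.9% to 77.9%. Of the pathway genes other than the 10 named, 38 were then higher and 40 lower. Of the 9 growth and repair factors, 5 were then higher (*Inhba*, *Ereg*, *Tgfb1*, *Hbegf* and *Thbs1*) and 1 lower (*Areg*). After another quantile normalization 4 were higher, with *Hbegf* added, and 1 lower, since *Hgf* was lost.

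Markers of lung cells other than neutrophils were lower in SP in the lists that *Areg* and *Hgf* fell beside. All 4 mesothelial markers with a row fell, with a summed log2 level of 12.15 to 12.67 in PBS and 7.85 to 9.55 in SP. Of the endothelial markers 6 of 8 fell, at 13.60 to 14.52 in PBS and 12.26 to 13.18 in SP. Those of ciliated epithelium (4 of 4), club cells (3 of 3), alveolar type 1 cells (4 of 5), alveolar type 2 cells (6 of 6) and B cells (4 of 4) fell too, while 2 of 8 fibroblast markers fell. *Dcn*, a fibroblast gene, fell 3.60-fold (adjusted p = 0.00194) and *Upk3b*, a mesothelial gene, 19.8-fold (adjusted p = 6.63e-05), and the lowest SP values were 8.84 and 5.83, above the Y-linked rows. The part of these cells in the fall of *Areg* and *Hgf* was not tested.

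Marker lists of leukocytes other than neutrophils moved in different directions. Of 7 monocyte and macrophage markers with a row 3 rose and none fell, with a summed log2 level of 11.28 to 12.24 in PBS and 12.00 to 12.99 in SP, so that the groups overlapped. *Adgre1*, which encodes the macrophage protein F4/80, rose 2.42-fold (adjusted p = 0.0223), a call lost under the study's ANOVA (0.0541) and without SP replicate 1 (0.062) or 2 (0.0536). Of 7 alveolar macrophage markers 1 rose and 4 fell. Of 7 T cell and innate lymphoid markers 1 rose (*Il7r*, 6.81-fold, adjusted p = 0.000874) and 2 fell. Platelets are known to carry TGF-β1, PDGF and thrombospondin-1, and of 7 platelet markers 2 fell and none rose. *Ppbp* was 4.37-fold lower (adjusted p = 0.00697), whereas *Pf4* differed by -0.18 (adjusted p = 0.69). The other fall, of *Gp9*, named after its value was seen, was from a mean of 5.22 to 4.89, near the Y-linked rows. Of 6 mast cell and basophil markers 2 fell, *Kit* and *Gata2*. The others, *Mcpt8*, *Cpa3*, *Fcer1a* and *Ms4a2*, did not pass and had PBS means of 4.27 to 4.89, near the Y-linked rows. The part of macrophages in the rises of *Inhba*, *Tgfb1* and *Ereg* was not tested.

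**Figure D5:**
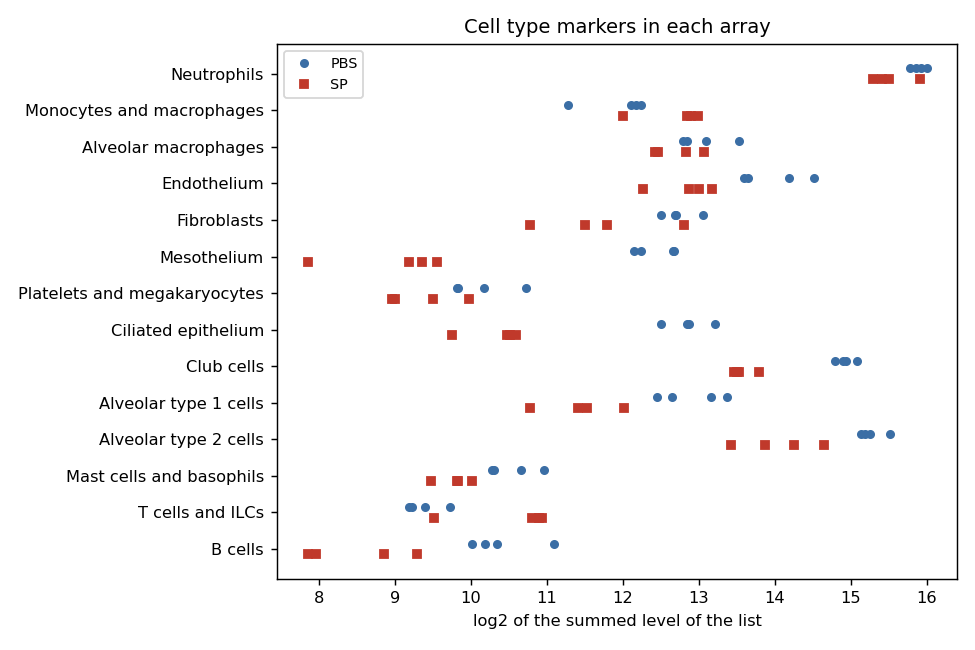
Log2 of the summed level (x axis) of each list of cell type markers (y axis) in the 4 PBS (blue circles) and 4 SP (red squares) arrays. Neutrophil markers lie at 15.3 to 16.0 in all arrays, mesothelial markers drop from 12.15 or more to 9.55 or less, and monocyte and macrophage markers overlap between the groups.

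Some arrays were the lowest or highest of their group for several of the 9 genes at once. The arrays described here were picked from all 8, and no array effect was tested. PBS replicate 2 was the lowest PBS array for 7 of the 9, the exceptions being *Areg* and *Pdgfb*, against 36.3% of all rows. It also had the lowest summed level of monocyte and macrophage markers in PBS, 11.28 against 12.11 to 12.24. SP replicate 3 was the lowest SP array for 5 of the 9 (*Hbegf*, *Inhba*, *Pdgfb*, *Hgf* and *Tgfbi*), against 33.9% of all rows, and the highest for *Ereg* and *Thbs1*. Its monocyte and macrophage markers were the lowest in SP too, 12.00 against 12.85 to 12.99. SP replicate 4 was the highest SP array for 5 of the 9 (*Hbegf*, *Areg*, *Inhba*, *Pdgfb* and *Tgfbi*), against 23.7% of all rows. Without SP replicate 3 *Inhba*, *Tgfb1*, *Ereg*, *Areg* and *Hgf* were still called and *Hbegf* was added.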

How the data were processed

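Per the labels and the study's methods, total RNA of bead-selected lung neutrophils was hybridized to Affymetrix Mouse Gene 1.1 ST arrays, 1 array per sample, 4 per group. The authors deposited log2 values made by robust multi-array averaging (RMA), with Affymetrix Expression Console, RMA and Partek named in the submitters' processing notes. RMA corrects background, equalises the arrays at the probe level and combines the probes of a transcript by median polish, so differences are relative to the array as a whole, and the medians of the deposited values still differ between groups. The genome build is not given in the sources used here. No depth applies to arrays, and their number limits the precision.

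Rows were named by matching RefSeq identifiers, without versions, to the RefSeq gene table. Of several rows per symbol the one with the highest mean over 8 arrays was used. SP and PBS were compared with limma 3.58.1 (R 4.3.3), without covariates, with Benjamini-Hochberg adjustment over all 24625 rows, and 95% confidence intervals are unadjusted. The fit was checked on simulated data. Genes named were the 10 genes of the set, their receptors, from each pathway list the largest rise and fall past an adjusted p of 0.05 and 2-fold, and from each marker list at most the 2 genes with the highest mean, with others said to be chosen later. Genes and lists were chosen with earlier results of these data known. Pathway lists were given as counts and medians with no set test, and 1 gene of a list is not reported here. Promoter sequence came from RefSeq (GRCm38.p6), for letters only, and no protein sequence was used here. Alternatives were the study's one-way ANOVA, rerun here on the deposited values, a robust prior, a replicate block, array weights and 2 other scalings. Dim rows left out, 1 row per symbol and each array left out were also tried.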

Additional observations from a re-analysis of the deposited data

Results flagged for a closer look

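Among the 18 groups of 4 values tested, 9 genes in PBS and in SP, 2 had a single array far from the other 3 by Dixon's criterion, which chance meets in about 1 of 20 groups. Both were SP replicate 3. *Hbegf* was 8.92 there against 9.65 to 9.78 in the other SP arrays, and *Inhba* was 10.78 against 11.17 to 11.23.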

How the results depend on the processing

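The differences of *Inhba*, *Tgfb1* and *Areg* kept their direction and their call under all 16 alternatives, at 3.94 to 4.39, 1.27 to 1.70 and -1.95 to -1.41. *Pdgfb* was called under none of 16. The count of growth and repair factors called, 5, was 3 under the rerun of the study's ANOVA and 3 to 6 when 1 array was left out. The count at least 2-fold lower, 1, was 1 to 2, with *Hgf* added without SP replicate 2 (-1.01). With arrays centred on their medians 18255 rows were called instead of 10860, and 2375 instead of 1568 were at least 2-fold higher. Signs turned with centred arrays for *Tgfbi* (0.22), *Acvr2a* (0.069), *Igf1r* (0.18), the neutrophil and platelet markers *S100a8* (0.10) and *Pf4* (0.10), and after another quantile normalization for *Egfr* (0.068), *Acvr2a* (0.16) and *Pf4* (0.15), none of them called in either fit. When 1 array was left out *Tgfbi* ran from -0.188 to 0.068, *Egfr* from -0.753 to 0.00404 (the latter without SP replicate 3), *Igf1r* from -0.26 to 0.03 and *Pf4* from -0.587 to 0.036. The call of the neutrophil marker *Retnlg* was lost under the study's ANOVA (adjusted p = 0.0722) and with centred arrays (0.343). It was also lost without PBS replicate 1, 2, 3 or 4 or SP replicate 1, 2 or 4 (0.0613 to 0.104). The cause of these shifts was not tested.

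The deviations of same-numbered PBS and SP arrays from their group means correlated at 0.016, 0.030, 0.350 and -0.274. Only the PBS and SP arrays of replicate 3 matched each other best, and every other array best matched an array of a different number. The labels do not say what the numbers mark, and whether they mark a shared day or batch was not tested. With the replicate block *Hgf* had an adjusted p of 0.0782 (difference -0.83) and *Thbs1* 0.0471 (0.47), and 5 of the 9 genes were called. Leaving out dim rows removed *Ereg*, which then had no value. Values near the Y-linked rows, as for *Ereg* in PBS, limit what a fold change can show.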
